A study of Mus musculus with 2 samples.

Results

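The 9 miRNA genes of the miR-17~92 and miR-106b~25 clusters were examined in small RNA sequencing of newborn mouse stomach. Members were chosen by gene symbol, as the rows of the count tables whose Ensembl identifier carries that symbol in the GENCODE annotation. All 9 were present among 1973 miRNA genes, and all 9 were detected, meaning that both libraries held 10 counts or more. The series holds 2 libraries of RNA below 30 nucleotides, each from the whole stomach of 1 pup of the B6NCrl strain at postnatal day 0. Both pups came from 1 dam, their sex was not collected, no treatment or genetic change is named, and they form 1 group with no other condition to compare. All p-values therefore compare 2 littermates' libraries.

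A miRNA guides the Argonaute protein to messenger RNAs that pair with its seed, the bases near its 5′ end, and so miRNAs with the same seed share many targets. Both clusters are cut from a single primary transcript each. The miR-17~92 transcript, Mir17hg, is induced by MYC and E2F factors and promotes growth of progenitor cells in many developing mouse organs. The miR-106b~25 hairpins lie inside Mcm7, the gene of a subunit of the helicase that replicates DNA, and the cluster is known to be overexpressed in human gastric cancer. The miR-17 family represses the cell cycle inhibitor gene Cdkn1a, and miR-92 and miR-25 repress the pro-apoptotic gene Bcl2l11.

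The sequences below are the guide arms, the arm of each hairpin best known to enter Argonaute, as given by RefSeq on GRCm38.p6. They are shown because seeds define the families compared here, and capitals mark the seed, bases 2 to 8. The counts are per hairpin and do not separate the arms.
Mir17 (miR-17-5p): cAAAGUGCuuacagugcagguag
Mir20a (miR-20a-5p): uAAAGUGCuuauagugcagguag
Mir106b (miR-106b-5p): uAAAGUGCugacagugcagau
Mir93 (miR-93-5p): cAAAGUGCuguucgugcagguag
Mir18 (miR-18a-5p): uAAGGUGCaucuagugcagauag
Mir19a (miR-19a-3p): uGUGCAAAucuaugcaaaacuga
Mir19b-1 (miR-19b-3p): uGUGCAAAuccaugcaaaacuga
Mir92-1 (miR-92a-3p): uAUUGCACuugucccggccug
Mir25 (miR-25-3p): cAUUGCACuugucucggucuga

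The 9 guides fall into 4 seed families. Mir17, Mir20a, Mir106b and Mir93 share the seed AAAGUGC, Mir19a and Mir19b-1 share GUGCAAA, and Mir92-1 and Mir25 share AUUGCAC. Mir18 stands alone with AAGGUGC, and within the seed it differs from miR-17-5p by the substitution A4G alone (positions from 1 at the 5′ end, the base of the first-named miRNA first). Of 1679 mature mouse miRNA names in the RefSeq table, 7 carry the miR-17 seed (0.417%), 6 the miR-92 seed (0.357%), and 2 each the miR-18 and miR-19 seeds (0.119%). Outside the seed, miR-17-5p differs from miR-20a-5p by C1U and C12U. It differs from miR-93-5p at 4 of 23 positions, all from 10 to 13. The guides of the miR-19 family differ from each other by U11C. Those of Mir92-1 and Mir25 differ by U1C, C14U and C18U.

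The 6 hairpins of miR-17~92 span 836 bases of chromosome 14, plus strand, from 115043671 to 115044506 (GRCm38). Their order from the 5′ end is Mir17, Mir18, Mir19a, Mir20a, Mir19b-1 and Mir92-1, and they overlap an exon of Mir17hg in the 1 annotated transcript that spans them. Mir17 (ENSMUSG00000065508.1) itself lies at 115043671 to 115043754 and Mir19a (ENSMUSG00000065416.1) at 115044000 to 115044081. The 3 hairpins of miR-106b~25, in the order Mir106b, Mir93 and Mir25, span 498 bases of chromosome 5, minus strand, from 138165321 to 138165818. Mir106b lies in an intron of both Mcm7 transcripts that span it. Mir93 and Mir25 are each spanned by 3 Mcm7 transcripts and overlap an exon of 1 of them.

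Own-strand counts over all miRNA genes, which form the total for every level below, came to 4463355 in pup 1 and 3454655 in pup 2. Levels are given as own-strand counts per 1000000 of that total (CPM), with mean and SD over the 2 pups. A mature miRNA is read whole, so no scaling by length was made. A level compares reads, and the files hold no calibration of how well each miRNA was recovered. Markers of stomach tissue were present, with all 10 genes fixed for smooth muscle, squamous forestomach, glandular, endocrine and endothelial cells detected. Of markers for other cell types, the 4 blood genes summed to 556 CPM in pup 1 and 537 CPM in pup 2, and the liver gene Mir122 stood at 205 and 255 CPM. None of 3 pancreatic acinar and none of 5 analysed neural genes was detected. Among the striated muscle genes analysed, 1 of 4 was detected, and their sum was 97.7 CPM in pup 1 and 265 CPM in pup 2. The neural and striated muscle lists hold mostly numbered copies of the same miRNA, such as Mir124a-1 and Mir124a-2. Reads that map to several places are assigned to no gene, so a lack of counts does not show that such cells were absent. In whole tissue, fewer cells of a type and less RNA per cell cannot be told apart.

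The clusters were clearly expressed, and most of their counts came from the 4 genes of the miR-17 seed family. Together the 9 genes held 1.85% of the own-strand counts of pup 1, with an exact 95% interval of 1.84% to 1.87%, and 2.14% of those of pup 2, with one of 2.13% to 2.16%. These intervals, like the others below, cover counting error only. The members' share was 2.00% ± 0.205 (SD, n = 2). All 9 members had reads on their own strand only, with 0 opposite reads in either library against 82782 and 74080 own-strand reads. A count of 0 allows an opposite share of up to 0.00362% in pup 1 and 0.00405% in pup 2. Over all miRNA genes the opposite strand held 2.26% and 2.15% of gene counts.

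Mir17, the founding member of the larger cluster, was the highest, at 29416 counts (6591 CPM) in pup 1 and 27857 counts (8064 CPM) in pup 2. Its mean of 7327 ± 1042 CPM ranked 25 among the 305 detected genes. Mir20a, the other miR-17 family gene of that transcript, had 13444 counts (3012 CPM) in pup 1 and 13417 counts (3884 CPM) in pup 2. Mir17 exceeded it in both pups, by 1.09 ± 0.0535 on the log2 scale, or 2.13-fold.

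The miR-17 family genes of the smaller cluster stood close to Mir20a. Mir93 had 13273 counts (2974 CPM) in pup 1 and 12214 counts (3536 CPM) in pup 2. Mir106b had 13444 counts (3012 CPM) in pup 1, the same number as Mir20a, and 10009 counts (2897 CPM) in pup 2. Mir20a, Mir93 and Mir106b had means of 3448, 3255 and 2955 CPM, and the mean log2 ratios among them did not exceed their SD over the pups. The pups disagreed here, with Mir20a over Mir106b at 1-fold in pup 1 and 1.34-fold in pup 2. The log2 ratio was 0.08 ± 0.08 for Mir20a over Mir93, 0.13 ± 0.22 for Mir93 over Mir106b and 0.21 ± 0.30 for Mir20a over Mir106b.

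Mir18, whose product is known to repress Ctgf in tumour cells, came next, at 7557 counts (1693 CPM) in pup 1 and 5488 counts (1589 CPM) in pup 2. The miR-92 family followed. Mir92-1 had 3948 counts (885 CPM) in pup 1 and 3626 counts (1050 CPM) in pup 2. Mir25 had 1586 counts (355 CPM) in pup 1 and 1372 counts (397 CPM) in pup 2. Each step down this order had the same direction in both pups and was larger than its SD. The log2 ratios were 0.85 ± 0.03 for Mir106b over Mir18, 0.77 ± 0.24 for Mir18 over Mir92-1 and 1.36 ± 0.06 for Mir92-1 over Mir25. An SD of 2 values is itself imprecise, so this comparison is weak and is not a test. The guide of Mir92-1 also occurs in another hairpin, Mir92-2, so its count may leave out guide reads that map to both. The SD does not cover such a loss, and the place of Mir92-1 below Mir18 holds for assigned reads only.

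The miR-19 family genes, known for the tumour-promoting action of the cluster in mouse lymphoma, lay far below the rest. Mir19a had 88 counts (19.7 CPM) in pup 1 and 81 counts (23.4 CPM) in pup 2. Mir19b-1 had 26 counts (5.83 CPM) in pup 1 and 16 counts (4.63 CPM) in pup 2. Mir19a ranked 235 and Mir19b-1 ranked 284 of 305. Mir25, the next member above, exceeded Mir19a 17.5-fold (log2 ratio 4.13 ± 0.06), and Mir19a exceeded Mir19b-1 4.14-fold (2.05 ± 0.41). The guide of Mir19b-1 also occurs in another hairpin, Mir19b-2, and that of Mir19a in none. The count of Mir19b-1 may therefore leave out guide reads, and the last ratio holds for assigned reads only.

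**Figure D1:**
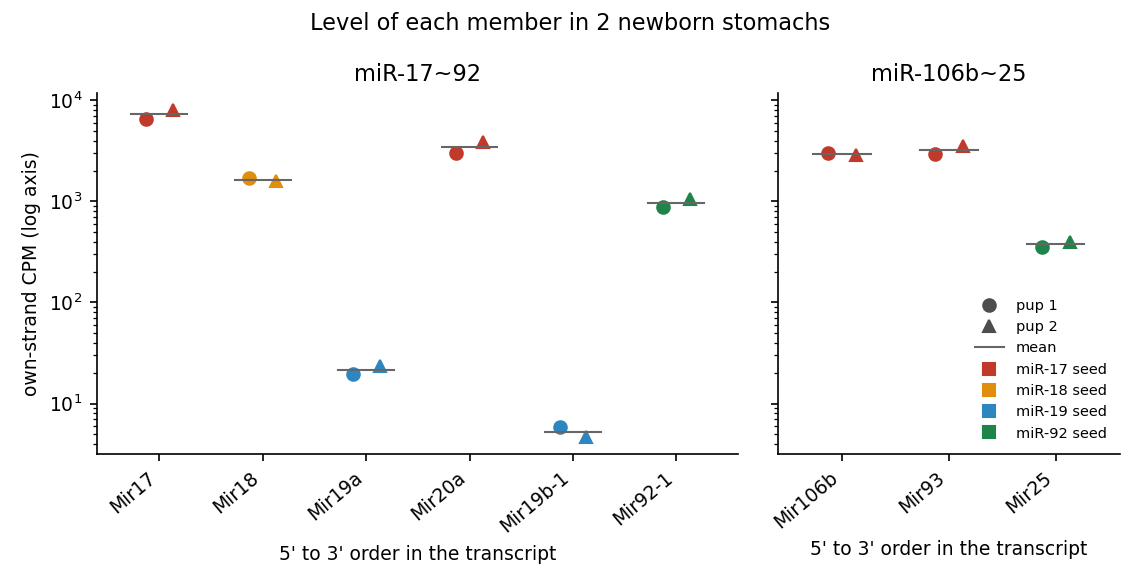
Own-strand CPM on a log axis for each member in 5′ to 3′ order, with circles for pup 1, triangles for pup 2, a line at the mean, and colour for the seed family. The 4 miR-17 seed genes form the top of both panels, while Mir19a and Mir19b-1 sit at 21.6 and 5.23 CPM between far higher neighbours. The count of Mir19b-1 may leave out guide reads shared with Mir19b-2.

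Along the miR-17~92 transcript the level did not follow the position of the hairpin. Mir19a starts 329 bases after Mir17 and Mir20a starts 486 bases after it, yet the mean level was 21.6 CPM at Mir19a and 3448 CPM at Mir20a. Mir19b-1 starts at 634 bases and Mir92-1 at 756 bases, with means of 5.23 and 967 CPM. Either count may leave out guide reads that also match a hairpin outside this transcript. Mir17 exceeded Mir19a 339-fold, by 8.41 ± 0.03 on the log2 scale, so this gap was nearly the same in both pups. Mir19a had only 88 and 81 counts, and an SD of 2 values is itself imprecise. Some other gaps differed more, with Mir17 over Mir19b-1 at 1131-fold in pup 1 and 1741-fold in pup 2, and over Mir18 at 3.89-fold and 5.08-fold. Closer between the pups were Mir17 over Mir20a (2.19-fold and 2.08-fold) and over Mir92-1 (7.45-fold and 7.68-fold). The guides of the miR-19 genes hold 34.8% (Mir19a) and 39.1% (Mir19b-1) G and C, and those of the other members 39.1% to 57.1%, with Mir20a also at 39.1%. In miR-106b~25 the last hairpin, Mir25, was the lowest, 8.63-fold under Mir93 (log2 ratio of Mir93 over Mir25 3.11 ± 0.06).

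How a read is counted depends on whether its sequence occurs once in the genome. Of the 9 guides, 7 occurred in no other annotated hairpin. The guide of Mir19b-1 is identical to that of Mir19b-2, and the guide of Mir92-1 to that of Mir92-2, both in the X-linked paralogous cluster. The tables assign no gene to reads that map to several places, which made up 26.0% of the reads of pup 1 and 25.7% of those of pup 2. The stretches below show how far the paired hairpins match, with capitals for the longest shared run and 6 bases on either side.
Mir19b-1 hairpin bases 46 to 82: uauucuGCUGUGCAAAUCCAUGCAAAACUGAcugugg
Mir19b-2 hairpin bases 46 to 82: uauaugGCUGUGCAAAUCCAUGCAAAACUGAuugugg
Mir92-1 hairpin bases 43 to 76: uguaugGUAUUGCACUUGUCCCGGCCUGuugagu
Mir92-2 hairpin bases 48 to 81: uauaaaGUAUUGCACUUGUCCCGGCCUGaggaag

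The shared run of 25 bases in the miR-19b pair holds the whole 23-base guide and 2 bases before it, and ends where the guide ends. The run of 22 bases in the miR-92a pair holds the 21-base guide and 1 base before it, and likewise ends with the guide. A guide read of annotated length matches both genes of a pair equally, and only reads that run further, or that come from another part of the hairpin, tell the genes apart. How many reads of these guides went uncounted was not tested. Mir19a has no such copy, and its longest run shared with another hairpin was 13 bases, the same as for Mir17 and Mir93, while its guide is 1 base from the guide of the miR-19b pair. The part of that near match in its counts was not tested.

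The counts of miR-17~92, summed over 6 genes, exceeded those of miR-106b~25, summed over 3 genes, about 2-fold. The 6 genes of miR-17~92 summed to 54479 counts in pup 1 and 50485 in pup 2, or 13410 ± 1703 CPM. The 3 genes of miR-106b~25 summed to 28303 and 23595 counts, or 6586 ± 346 CPM. The median level per gene was not higher in miR-17~92, at 1304 CPM against 2955 CPM in miR-106b~25. The first median depends on Mir92-1, whose count may leave out guide reads. The log2 ratio of the sums was 0.94 in pup 1 and 1.10 in pup 2, a mean of 1.02 ± 0.11 (SD, n = 2) and 2.03-fold. The smallest p that an exact permutation test allows with 2 libraries is 0.5. Ratios are therefore set against their SD, a weak criterion with 2 values. Leaving out Mir19b-1 and Mir92-1, whose guides are not unique, gave 0.91 on the log2 scale, or 1.88-fold. Both belong to miR-17~92, so leaving them out could only lower the ratio.

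Within the miR-17 seed family the difference between the clusters was smaller. Mir17 and Mir20a together had 42860 counts in pup 1 and 41274 in pup 2, against 26717 and 22223 for Mir106b and Mir93. The log2 ratio was 0.68 in pup 1 and 0.89 in pup 2, with a mean of 0.79 ± 0.15 and a fold of 1.73. Of these genes Mir17 exceeded every other in both pups, while the mean log2 ratios of Mir20a over Mir93 and over Mir106b did not exceed their SD. In the miR-92 family, Mir92-1 exceeded Mir25 2.56-fold, and the count of Mir92-1 may leave out guide reads shared with Mir92-2.

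With each hairpin's counts, of either arm, assigned to the seed family of its guide, the miR-17 family held 84.0% of the members' counts in pup 1 and 85.7% in pup 2. Mir18 held 9.13% and 7.41%, the miR-92 family 6.69% and 6.75%, and the miR-19 family 0.138% and 0.131%. The miR-17 family exceeded all other members 5.62-fold, by 2.49 ± 0.13 on the log2 scale, and 8.30-fold without Mir19b-1 and Mir92-1. Both genes belong to the other members, so leaving them out could only raise the fold. Any of their guide reads that went uncounted would lower the 5.62-fold excess. The excess of the miR-17 family over the miR-92 family was 12.6-fold, with log2 ratios of 3.65 in pup 1 and 3.67 in pup 2. The miR-92 sum is mostly Mir92-1, and how many of its guide reads went uncounted was not tested. In miR-106b~25, where the 3 guides occur in no other annotated hairpin, Mir106b and Mir93 together exceeded Mir25 16.5-fold.

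**Figure D2:**
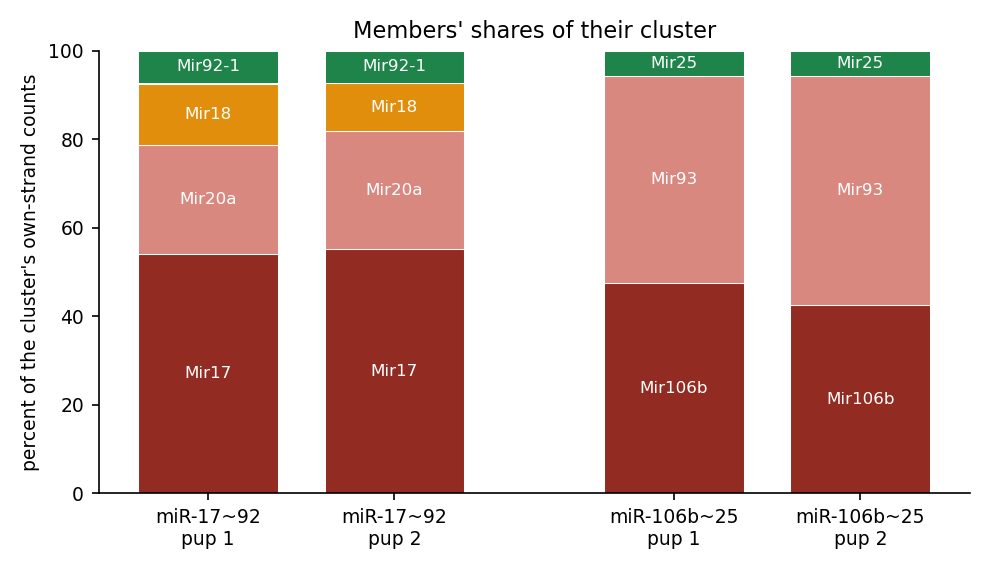
Share of each cluster's own-strand counts, in percent, taken by its members in pup 1 and pup 2, with red shades for the miR-17 seed, orange for miR-18 and green for miR-92. Mir17 fills 54.0% and 55.2% of its cluster, Mir93 46.9% and 51.8% of its own, and the miR-19 genes are too few to be seen.

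The make-up of each cluster was similar in the pups, and in percentage points Mir106b, Mir93 and Mir18 differed most. Mir17 held 54.0% of the miR-17~92 counts of pup 1, within exact 95% bounds of 53.6% and 54.4%, and 55.2% of those of pup 2, within 54.7% and 55.6%. Mir20a held 24.7% and 26.6%. Mir18 held 13.9% in pup 1 (13.6% to 14.2%) and 10.9% in pup 2 (10.6% to 11.1%). In miR-106b~25, Mir106b held 47.5% in pup 1 (46.9% to 48.1%) and 42.4% in pup 2 (41.8% to 43.1%). Mir106b and Mir93 were level in pup 1, and Mir93 was ahead in pup 2. Mir92-1 (7.25% and 7.18%) and Mir25 (5.60% and 5.81%) kept nearly the same share of their clusters.

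The third paralogous cluster, which runs from Mir106a to Mir363 on the X chromosome, had far fewer counts than either. Its 6 genes, the list used for the rest of the gene family, summed to 221 counts in pup 1 and 232 in pup 2, or 58.3 ± 12.5 CPM. Of them 4 were detected, while Mir18b (9 and 11 counts) and Mir19b-2 (2 and 3 counts) were not detected in both pups. The miR-17~92 sum exceeded it 232-fold (log2 ratio 7.86 ± 0.13) and the miR-106b~25 sum exceeded it 114-fold (6.83 ± 0.24). Both sums in the first of these ratios may leave out reads of the shared miR-19b and miR-92a guides. In the second only the X-linked sum may do so, as the guides of miR-106b~25 occur in no other annotated hairpin. That ratio may therefore be too high.

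At the 3 pairs whose guides differ in sequence, the mean gap over the pups ran from 309-fold to 662-fold. The guide of Mir17 differs from that of Mir106a by U10A alone. Mir17 had 29416 and 27857 counts where Mir106a had 39 and 48, a 662-fold difference. Mir20a exceeded Mir20b (41 and 46 counts), from which it differs by U1C and U10C, 309-fold. Mir18 exceeded Mir18b, from which it differs by A18U and A20U, 647-fold. Mir92-1 exceeded Mir92-2 (92 and 91 counts) 41.4-fold in the reads assigned to either. Mir363, which ends the X-linked cluster and carries the miR-92 seed, had 38 and 33 counts.

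**Figure D3:**
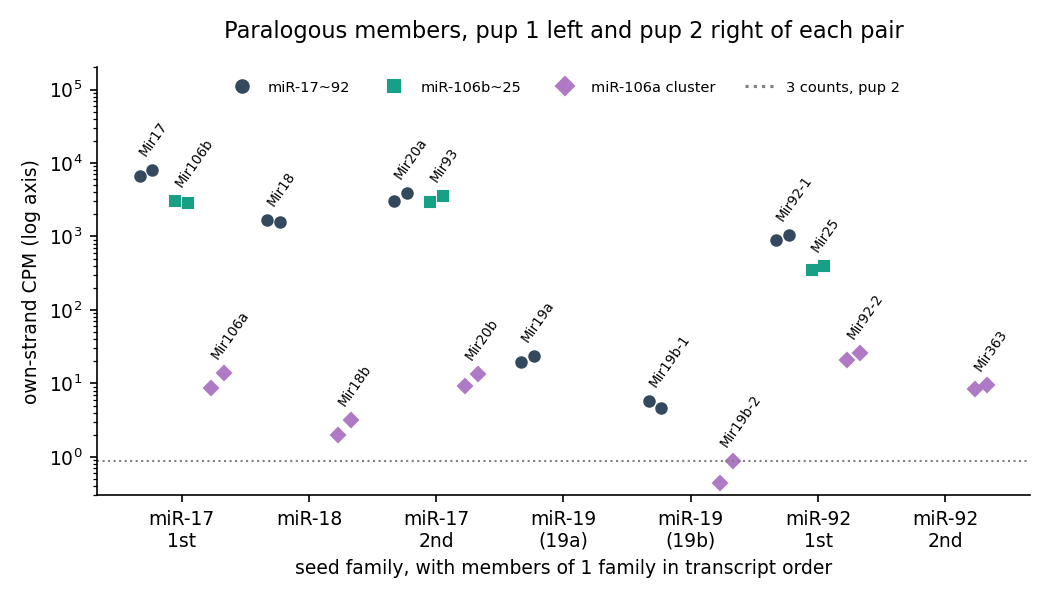
Own-strand CPM on a log axis for genes of the 3 paralogous clusters, grouped by seed family, with pup 1 left and pup 2 right in each pair and a dotted line at the level of 3 counts in pup 2 (0.868 CPM). Each gene of the X-linked cluster that has a counterpart in another cluster lies below it, and Mir19b-2 lies at or below the line.

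Between the pups, none of the 9 members differed by the rule used for all genes, a two-sided exact binomial test on TMM-scaled counts with an adjusted p below 0.05 and a change of 1.5-fold or more. That rule called 2.95% of the 305 detected genes, 0.656% as higher in pup 1 and 2.30% as higher in pup 2. Scaled by library totals it called 1 gene higher in pup 1 and 15 higher in pup 2, against 2 and 7 with TMM and 4 and 6 with DESeq2 size factors, and no member under any of these. Total scaling moved the median log2 ratio of all detected genes to -0.13, so TMM scaling, under which that median is -0.02, was used for the ratios that follow. The members' median absolute log2 ratio was 0.16, against 0.17 over all detected genes. Their median level was 1641 CPM, against 166 CPM over all detected genes. Neither this comparison nor the shares by adjusted p below were matched for level, and higher counts let the binomial test pass smaller ratios.

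Below that size, genes of 1 cluster differed in opposite directions by their counts. Mir20a had a log2 ratio of pup 1 over pup 2 of -0.26 (exact 95% interval -0.30 to -0.23; adjusted p = 1.73e-49, exact binomial test), and Mir17 had -0.19 (-0.21 to -0.16; adjusted p = 1.62e-53, exact binomial test). Mir18, from the same transcript, had 0.19 (0.14 to 0.25; adjusted p = 1.22e-13, exact binomial test). In the other cluster Mir106b had 0.16 (0.12 to 0.20) and Mir93 had -0.15 (-0.18 to -0.11). By adjusted p alone, 6 of 9 members differed, against 52.1% of all detected genes. Pup 1 was higher for 2 of these and for 27.9% of all detected genes, and pup 2 for 4 and 24.3%. Scaled by library totals 7 of 9 did, against 47.9%, as Mir25 passed too (log2 ratio -0.16, adjusted p = 0.0067, exact binomial test).

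Variation between animals is not part of the binomial test. Nor can edgeR's exact test separate a member's difference from it, as its dispersion was set by the differences between these same pups. In edgeR's exact test, with a common dispersion estimated from these same libraries and equal to a coefficient of variation of 11.4%, each of the 9 members had an adjusted p of 0.999. The lowest unadjusted p among them was 0.26, for Mir20a. Over all detected genes, 0.328% passed the adjusted and 5.25% the unadjusted threshold of 0.05 in that test. With TMM scaling, Mir25 (-0.06), Mir19a (-0.15) and Mir19b-1 (0.43) had exact binomial intervals that hold 0. For Mir19b-1, with 26 and 16 counts, the interval runs from -0.52 to 1.43, a range that holds a 2-fold higher level in pup 1.

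**Figure D4:**
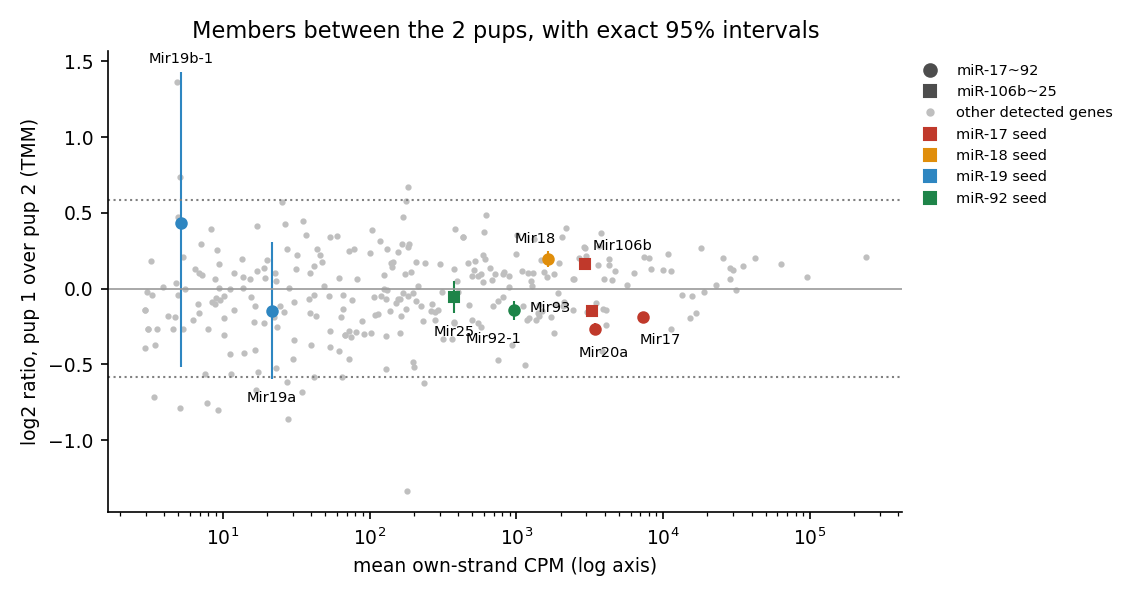
Log2 ratio of pup 1 over pup 2 after TMM scaling against mean CPM on a log axis, for the members (coloured by seed, with exact 95% intervals) and the other detected genes (grey), with dotted lines at a ratio of 1.5 in either direction. Mir18 and Mir106b lie above 0, Mir17, Mir20a and Mir93 below it, all within the cloud of other genes.

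Among the detected genes outside the 2 clusters, the one nearest to each member was found by Euclidean distance of log2(CPM + 1) over the 2 libraries. Mir375, a miRNA gene of endocrine cells, lay nearest to Mir17 (7417 CPM, distance 0.28). Mir27b (2977 CPM, distance 0.04) was nearest to Mir106b, and Mir351 (3490 CPM) to both Mir20a and Mir93. Mir455 was nearest to Mir18, Mir154 to Mir92-1, Mir7b to Mir25, Mir493 to Mir19a and Mir1968 to Mir19b-1. With only 2 libraries this likeness is one of level.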

How the data were processed

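The members and gene lists were chosen with earlier results of these data known. Raw read counts per miRNA gene were deposited by the authors as 1 table per library, without regard to strand and per strand, on mm10 with annotation release M4, per the descriptions filed with the tables. Which aligner and counting tool were used is not given in the sources. The strand column with the larger total (97.7% and 97.8% of gene counts) was used. Reads assigned to no gene stayed out of totals: of 7194298 and 5546207 reads, 8.70% and 8.94% were unmapped, 26.0% and 25.7% mapped to several places, and 1.78% and 1.70% fell outside annotated genes.

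Names and positions came from GENCODE M21 (GRCm38), which matched 1894 of 1973 identifiers, and guide arms from RefSeq (GRCm38.p6), where all 9 members were found. Hairpins were compared with all M21 miRNA hairpins in the tables. The floor is 3 counts. With 1 library a side, edgeR's quasi-likelihood test has no residual error, so the comparison of pups used an exact binomial test, two-sided, against TMM effective library sizes (edgeR 4.0.16, R 4.3.3), Benjamini-Hochberg adjusted over 305 genes. The test was run on simulated counts that held counting error only, so this check does not cover variation between animals. Alternatives were DESeq2 1.42.0 size factors, library totals, other filters, both strands, edgeR's exact test and left-out members. Genes named are the members, the genes of the X-linked miR-106a cluster, other detected genes of the same seed, the nearest detected gene outside the clusters to each member, marker genes, and Mir143, left out of totals in an alternative. Genes of the same seed without detection were named after their values were seen. Figures were drawn with matplotlib 3.10.9, and tests were run with scipy 1.17.1 under Python 3.11.15.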

Additional observations from a re-analysis of the deposited data

How the results depend on the processing

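With 2 pups, leaving out 1 gives the value of the other, so the ranges of the 4 ratios that follow restate the values per pup. The log2 ratio of miR-17~92 over miR-106b~25 ran from 0.94 to 1.10 when either pup was left out. The miR-17 family ratio ran from 0.68 to 0.89, the miR-92 family ratio from 1.32 to 1.40, and the ratio of the miR-17 family over all other members from 2.40 to 2.58. Without Mir19b-1 and Mir92-1, the first became 0.91 and the last 3.05. Leaving them out could only lower the first, whose upper sum holds both, and raise the last, whose lower sum holds both. Counting both strands left all 4 ratios unchanged, as no member had opposite reads. The number of genes called between the pups was 16 with library totals and 1 with edgeR's exact test, against 9. Of 53 member ratios over 6 settings, 53 kept their direction and none was called. These settings rescale, filter or retest the same member counts, so the kept directions add little support. Mir25 passed the adjusted p alone with library totals (0.0067, exact binomial test) but not with TMM (0.413, same test). Mir19b-1 gave no value with a minimum of 50 counts. Levels over all reads or over totals without Mir143 moved by more than 1 SD for all 9 members. No paired analysis was possible because the libraries form 1 group, and leaving out a pup ends the test between pups. Counts limit Mir19a and Mir19b-1.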

Other observations

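Outside the 3 paralogous clusters, the seeds of the members occur in 4 further mouse miRNA genes. Of these Mir32 and Mir92b, both with the miR-92 seed, were detected. Mir32 had 626 counts (140 CPM) in pup 1 and 555 counts (161 CPM) in pup 2. Mir92b had 142 counts (31.8 CPM) in pup 1 and 108 counts (31.3 CPM) in pup 2. Both stood below Mir25, the lower of the miR-92 family members, at 376 ± 29.6 CPM (SD, n = 2). Mir367 (miR-92 seed) and Mir6383 (miR-17 seed) had 0 counts in both pups, which allows up to 0.672 CPM in pup 1 and 0.868 CPM in pup 2.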
